A study of Rattus norvegicus with 36 samples.

Results

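Tek, Ptprb, Erg, Emcn, Mmrn2 and Cd93 are 6 genes of the vascular endothelium that are often read together as markers of endothelial identity and of signalling through the Tie receptors. They were picked by name, with results of these data in view, as 6 of the 27308 genes of a count table of rat lung. The identifiers there are rCG_53516 for Tek, rCG_48724 for Ptprb, rCG_53058 for Erg, rCG_28624 for Emcn and rCG_42331 for Mmrn2. Cd93 stands in the table under its older symbol C1qr1 (rCG_27535).

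The 36 lung libraries fall into 3 arms of 12, each with 6 males and 6 females, and the series addresses the zinc importer ZIP12 (Slc39a12) as a target in pulmonary hypertension. In the APL-9796 arm, rats breathing 10% oxygen at normal pressure for 2 weeks received this antibody against ZIP12, at 10 mg/kg into the peritoneum, starting 48 h before hypoxia and then every 3 days. In the IgG arm, rats in the same hypoxia received control IgG at the same dose and schedule, and the third arm stayed in normoxia. Rats of all arms were adults of 200 to 240 g on the Sprague Dawley background, with the human form of Slc39a12 knocked in for the rat gene by CRISPR-Cas9 (huSlc39a12). No antibody is named for the normoxic rats, which means that effects of hypoxia and of IgG itself cannot be told apart in IgG against normoxia. Whether libraries are 1 per animal is not stated either, and p-values then speak of the spread among libraries alone.

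Tek encodes Tie2, the receptor tyrosine kinase of the angiopoietins, and Ptprb encodes the phosphatase VE-PTP, which removes phosphate from Tie2 and binds VE-cadherin at endothelial junctions. Erg is an ETS family transcription factor that keeps endothelial genes on, and Emcn is a sialomucin of the luminal surface of capillaries and veins. Cd93 is a lectin-like transmembrane protein that binds multimerin-2, the matrix protein made from Mmrn2. All 6 are known as endothelial genes, so in whole lung a lower level can come from fewer endothelial cells or from less RNA per cell, and these cannot be told apart in bulk tissue.

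Because Erg binds DNA at GGAA, the core of ETS motifs, the stretch from 250 bases before to 50 bases after the gene start is shown for the genes with an entry in a RefSeq promoter table of the rat assembly GRCr8. Of the 6 genes 3 matched, which were Emcn (chr2:228564289-228564588, plus strand), Mmrn2 (chr16:9711955-9712254, plus strand) and Erg itself (chr11:48251517-48251816, minus strand). Capitals mark GGAA or its reverse complement TTCC, and each line runs 5′ to 3′.
Emcn: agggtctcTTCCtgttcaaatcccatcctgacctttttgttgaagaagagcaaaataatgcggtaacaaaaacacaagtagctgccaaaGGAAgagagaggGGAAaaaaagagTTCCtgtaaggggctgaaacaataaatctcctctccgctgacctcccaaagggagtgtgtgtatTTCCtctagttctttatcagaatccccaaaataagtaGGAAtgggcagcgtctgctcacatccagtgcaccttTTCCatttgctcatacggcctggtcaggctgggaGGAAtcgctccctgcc
Mmrn2: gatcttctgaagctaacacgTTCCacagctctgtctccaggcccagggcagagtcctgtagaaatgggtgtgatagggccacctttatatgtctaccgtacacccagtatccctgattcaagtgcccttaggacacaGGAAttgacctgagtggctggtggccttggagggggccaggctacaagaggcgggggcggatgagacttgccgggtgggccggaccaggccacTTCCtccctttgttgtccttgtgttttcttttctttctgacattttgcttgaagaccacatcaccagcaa
Erg: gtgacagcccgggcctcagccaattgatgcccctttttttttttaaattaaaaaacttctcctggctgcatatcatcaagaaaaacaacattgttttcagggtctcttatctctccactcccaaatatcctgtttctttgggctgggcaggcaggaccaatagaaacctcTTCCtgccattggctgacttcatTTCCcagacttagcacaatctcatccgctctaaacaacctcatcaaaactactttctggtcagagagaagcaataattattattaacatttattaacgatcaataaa

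On both strands the Emcn promoter held 8 matches to GGAA, the Mmrn2 promoter 3 and the Erg promoter 2. Among 27457 promoters of the same length, 95.8% held at least 1 match, the median was 3 and 3.86% held 8 or more. The longer ETS motif CAGGAAG, which contains GGAA, was found once in Emcn and once in Erg, and 12.4% of promoters hold it. The hypoxia motif ACGTG was found once in Mmrn2 (19.7% of promoters), and its second form GCGTG in none of the 3 (31.1% of promoters). The SOX motif ACAAT was found once in Emcn and 2 times in Erg, and 33.1% of promoters hold it. Matches are descriptions of these windows and not evidence of binding.

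The table held between 6.07 and 20.8 M counts per library, with a median of 11.1 M, and 15570 genes passed the filter on low counts, the 6 genes among them. Levels are in CPM, counts scaled to library size after TMM scaling, which is not adjusted for gene length, so levels are compared between libraries and not between genes. Libraries female normoxia 8 and female normoxia 9 stood apart from the rest. Their summed levels of 4 alveolar type II markers were 30830 and 41660 CPM, against 16300 to 22230 CPM in the other 10 normoxic libraries, and values are given without them where they matter. Sequencing run, taken from parts of the read file names that were read as library pool and flow cell, was uneven: run A held 26 libraries, run B 9 and run C 1. In run A were 5 female and 5 male APL-9796 libraries, 2 female and 5 male IgG libraries, and 3 female and 6 male normoxic libraries.

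In hypoxia with IgG the 6 genes parted into 3 patterns relative to normoxia. The receptor gene Tek, its phosphatase gene Ptprb and, by less, the transcription factor gene Erg were lower, Emcn and Mmrn2 were higher, and Cd93 stood close to its normoxic level. Counting edgeR calls at a false discovery rate (FDR, Benjamini-Hochberg over all genes tested) below 0.05, 5 of the 6 were called, 2 higher and 3 lower. Of all genes tested, 12.5% were called, 6.31% higher and 6.19% lower. Since the genes were chosen with this contrast known, the values are a description, and neither the count nor the values below carry a test.

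**Figure D1:**
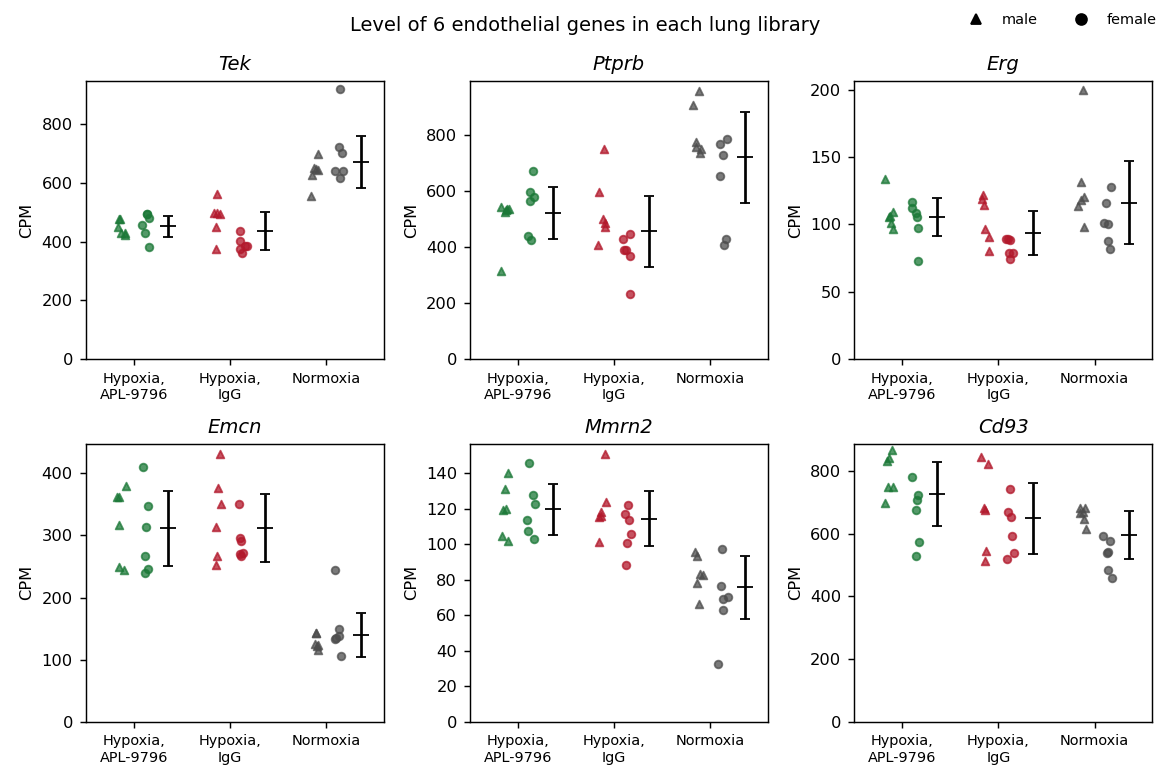
Level in CPM (vertical axes, starting at 0) of each gene in every library, by arm (horizontal axes), with triangles for males, circles for females and, beside each arm, the mean and SD of its 12 libraries. Mean Tek and Ptprb are lower, and mean Emcn and Mmrn2 higher, in both hypoxic arms than in normoxia. The ranges of Ptprb, Cd93 and Erg overlap between the 3 arms. The IgG arm overlaps normoxia for Tek and Mmrn2, and the APL-9796 arm does so for Emcn.

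Tek, the angiopoietin receptor, ranged from 382 to 496 CPM in APL-9796 lungs (median 453), from 362 to 564 CPM in IgG lungs (median 420) and from 557 to 920 CPM in normoxic lungs (median 646). No APL-9796 library reached the lowest normoxic one, and 1 IgG library, male IgG 4, did. Mean levels were 452 ± 34.5 CPM with APL-9796, 436 ± 65.1 CPM with IgG and 673 ± 89.4 CPM in normoxia (SD, n = 12 each). The log2 difference was −0.63 ± 0.06 (SE) for IgG minus normoxia, with a 95% interval of −0.76 to −0.50. Without female normoxia 8 and 9 it was −0.57.

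Ptprb, the phosphatase that acts on Tie2, ranged from 316 to 672 CPM in APL-9796 lungs (median 536), from 233 to 748 CPM in IgG lungs (median 439) and from 406 to 956 CPM in normoxic lungs (median 751). All 3 arms overlapped, and the 2 lowest normoxic values were those of female normoxia 8 and 9. Mean levels were 522 ± 91.9 CPM with APL-9796, 456 ± 127 CPM with IgG and 720 ± 162 CPM in normoxia. The log2 difference for IgG minus normoxia was −0.67 ± 0.12 (interval −0.91 to −0.43), and −0.76 without those 2 libraries.

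Erg, the ETS transcription factor, ranged from 72.6 to 134 CPM in APL-9796 lungs (median 106), from 74.6 to 122 CPM in IgG lungs (median 89.3) and from 81.4 to 200 CPM in normoxic lungs (median 115). The arms overlapped over most of their ranges, and the highest value was that of male normoxia 2. Mean levels were 105 ± 14.2 CPM with APL-9796, 93.5 ± 16.3 CPM with IgG and 116 ± 30.6 CPM in normoxia. The log2 difference for IgG minus normoxia was −0.31 ± 0.09 (interval −0.50 to −0.12). It was −0.22 without male normoxia 2, −0.26 without male IgG 1, −0.28 without female IgG 9 and −0.28 in run A alone, and in each of these fits Erg was no longer called.

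Emcn, the sialomucin, ranged from 239.9 to 410 CPM in APL-9796 lungs (median 315), from 253 to 431 CPM in IgG lungs (median 293) and from 106 to 244 CPM in normoxic lungs (median 134). Every IgG library lay above every normoxic one, which held for 1 of the 6 genes between these arms and for 0.771% of all genes tested in either direction. The APL-9796 and normoxic arms touched through female normoxia 9 at 244 CPM, and the highest of the other 11 normoxic libraries was female normoxia 8 at 150 CPM. Mean levels were 312 ± 60.7 CPM with APL-9796, 312 ± 54.8 CPM with IgG and 140 ± 35.2 CPM in normoxia. The log2 difference for IgG minus normoxia was 1.16 ± 0.11 (interval 0.93 to 1.38), a fold of 2.23, and 1.30 without female normoxia 8 and 9.

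Mmrn2, the gene of the matrix protein bound by CD93, ranged from 102 to 145 CPM in APL-9796 lungs (median 119), from 88.1 to 151 CPM in IgG lungs (median 116) and from 32.6 to 97.2 CPM in normoxic lungs (median 77.2). The APL-9796 and normoxic arms did not overlap, and the IgG arm overlapped normoxia through female IgG 11. The lowest value, 32.6 CPM, was that of female normoxia 9. Mean levels were 120 ± 14.5 CPM with APL-9796, 114 ± 15.4 CPM with IgG and 75.6 ± 17.7 CPM in normoxia. The log2 difference for IgG minus normoxia was 0.60 ± 0.10 (interval 0.39 to 0.81), and 0.52 without female normoxia 8 and 9.

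Cd93, the receptor for multimerin-2, ranged from 529 to 867 CPM in APL-9796 lungs (median 735), from 514 to 845 CPM in IgG lungs (median 661) and from 459 to 682 CPM in normoxic lungs (median 603). The 3 arms overlapped. Mean levels were 727 ± 102 CPM with APL-9796, 649.9 ± 113 CPM with IgG and 596 ± 77.7 CPM in normoxia. The log2 difference for IgG minus normoxia was 0.13 ± 0.08 (interval −0.02 to 0.29), so the ligand gene Mmrn2 and its receptor gene stood at unlike distances from normoxia.

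APL-9796 was set against IgG within hypoxia to ask whether the antibody moved these genes. All 6 differences were above 0 and small: 0.22 ± 0.12 for Ptprb, 0.18 ± 0.09 for Erg, 0.16 ± 0.08 for Cd93, 0.07 ± 0.10 for Mmrn2, 0.06 ± 0.06 for Tek and 0.00 ± 0.11 for Emcn (log2 ± SE). Of 15570 genes tested 8047 were above 0, as were 17 of 18 other endothelial genes, so this direction was not particular to the 6. Emcn kept its sign in 7 of 11 alternative settings and changed it in 13 of 36 fits without 1 library. The 95% intervals were −0.02 to 0.45 for Ptprb, −0.01 to 0.37 for Erg and 0.00 to 0.31 for Cd93. They were −0.14 to 0.27 for Mmrn2, −0.07 to 0.19 for Tek and −0.22 to 0.22 for Emcn. edgeR called 0 of the 6 genes and 0% of all genes, with 626 genes at an unadjusted p under 0.05. DESeq2 called 1 gene (631 unadjusted) and limma-voom 0 (2417 unadjusted).

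Hypoxia with APL-9796 shares its normoxic libraries with the IgG comparison, so its values are given beside those above and not as a second support. APL-9796 minus normoxia was −0.57 ± 0.06 for Tek, −0.45 ± 0.12 for Ptprb and −0.13 ± 0.09 for Erg. It was 1.16 ± 0.11 for Emcn, 0.67 ± 0.10 for Mmrn2 and 0.29 ± 0.08 for Cd93. Of the 6 genes 3 were called higher and 2 lower, where 18% of all genes tested were called, 9.08% higher and 8.93% lower. Erg was the gene without a call here and Cd93 the one without a call in the IgG comparison. Tek and Mmrn2 did not overlap between these arms, as did 0.816% of all genes tested. Ptprb stood at −0.20 ± 0.17 in females and −0.70 ± 0.17 in males for APL-9796 minus normoxia. The female difference minus the male one was 0.50 ± 0.24 (edgeR FDR = 0.294), and for this comparison of the sexes edgeR called 0 of all genes tested.

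**Figure D2:**
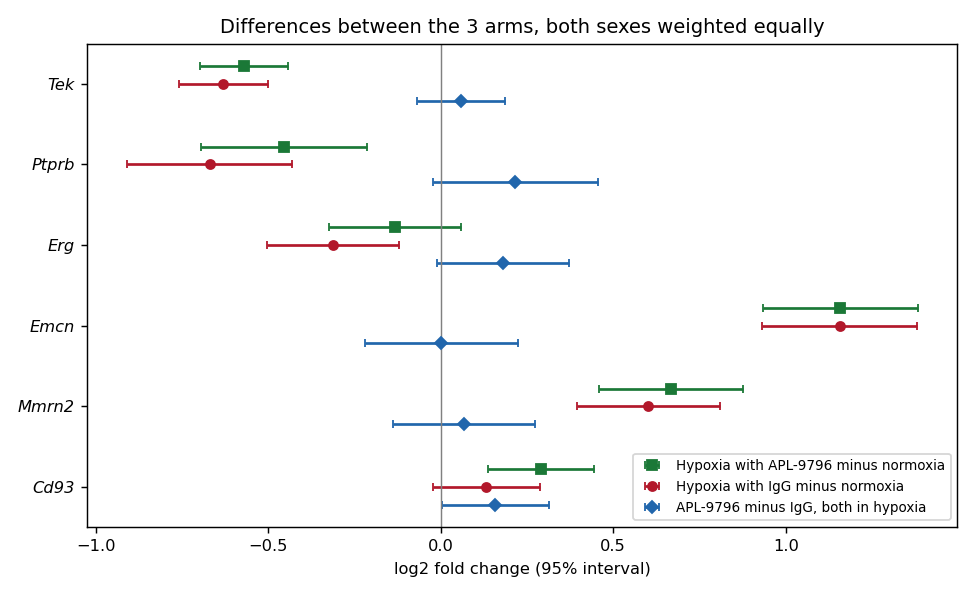
Log2 fold change (horizontal axis) of each gene for hypoxia with APL-9796 minus normoxia (squares), hypoxia with IgG minus normoxia (circles) and APL-9796 minus IgG (diamonds), with 95% intervals from the edgeR fit. The differences of APL-9796 minus IgG lie between 0.00 and 0.22, whereas those against normoxia run from −0.67 for Ptprb to 1.16 for Emcn.

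The parting of the genes can also be described within each library, as the log2 ratio of 2 genes, in which a change shared by both genes drops out. These ratios, and those to other endothelial genes below, come from the same values that were known when the genes were chosen. They are a description, carry no test and add no support. Some of the 15 pairs are given, and overlap was not counted over pairs of other genes. The log2 Tek to Emcn ratio differed by −1.73 for APL-9796 minus normoxia and by −1.8 for IgG minus normoxia, and neither hypoxic arm overlapped normoxia. The Tek to Mmrn2 ratio differed by −1.26 in each of these comparisons, again without overlap. The Ptprb to Mmrn2 ratio differed by −1.15 with APL-9796 and −1.3 with IgG, also without overlap. The Ptprb to Emcn ratio differed by −1.61 with APL-9796 and −1.84 with IgG, and here both hypoxic arms overlapped normoxia. In contrast the Tek to Ptprb ratio differed by −0.12 for APL-9796 minus normoxia and by 0.04 for IgG minus normoxia, with overlapping arms. Between the 2 genes that were higher, the Emcn to Mmrn2 ratio differed by 0.46 and 0.54 in the same comparisons, with overlap.

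Against the mean log2 level of 18 other endothelial genes, Tek differed from normoxia by −0.838 with APL-9796 and −0.835 with IgG, and neither arm overlapped normoxia. Overlap on this scale was not counted over all genes tested. On the same scale Ptprb differed by −0.72 with APL-9796 and −0.88 with IgG, and Erg by −0.39 and −0.50. Emcn differed by 0.89 with APL-9796 and 0.96 with IgG, and Mmrn2 by 0.43 and 0.42. Cd93 differed by 0.01 and −0.09, so of the 6 genes it stayed nearest to the other endothelial genes. The mean of those 18 genes was itself 0.27 higher with APL-9796 and 0.21 higher with IgG than in normoxia.

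**Figure D3:**
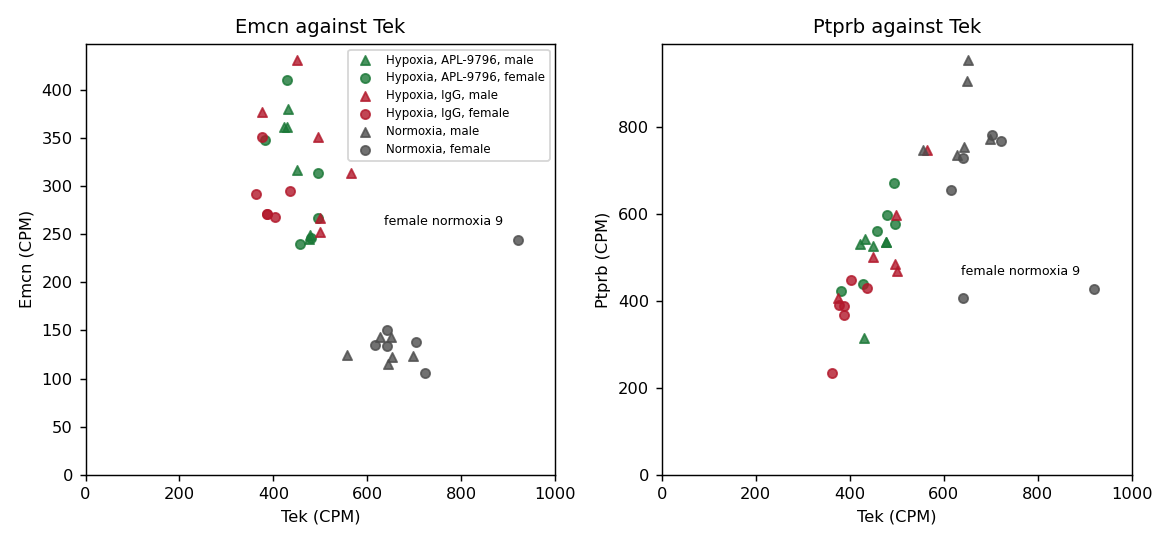
Level of Emcn (left) and of Ptprb (right) against the level of Tek in the same library, all in CPM, with green for hypoxia with APL-9796, red for hypoxia with IgG and grey for normoxia (triangles male, circles female). Hypoxic libraries lie high and left of normoxic ones for Emcn, and along 1 rising band with most normoxic ones for Ptprb, from which female normoxia 8 and 9 fall away.

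Calls for IgG minus normoxia in the gene lists below rest on 12 libraries an arm. With run A alone, 7 IgG and 9 normoxic libraries enter and fewer genes are called, and for the genes named below the calls of Angpt2, Itga5, Foxo1, Ptpn11, Ets2, Fgd5, Bmp6, Ednrb, Fbln5, Bmx, Dll4, Efnb2, Slc6a2, Kcnj8, Cnn1, Des, Lmod1, Notch3, Col1a1, Col1a2, Sftpa1, Sftpc, Rtkn2, Hopx, S1pr1 and the platelet and adipocyte markers were lost there.

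Genes around Tek in the angiopoietin and Tie axis were called in both directions. Of 13 such genes listed, 10 matched a tested row, and 4 rose and 2 fell in hypoxia with IgG relative to normoxia, with a median log2 difference of 0.15 beside −0.02 over all genes tested. Tie1, the second Tie receptor, rose to 477 ± 53.9 CPM in IgG lungs, against 339 ± 76.3 CPM in normoxic lungs (0.50 ± 0.09, edgeR FDR = 0.000188). Angpt2, the ligand that acts mostly as an antagonist of Tie2, rose to 21.8 ± 3.52 CPM in IgG lungs, against 16.8 ± 2.52 CPM in normoxia (0.38 ± 0.10, FDR = 0.00797). Angpt1, the activating ligand, stood at 80.8 ± 14.5 CPM in IgG lungs and 95.6 ± 13.6 CPM in normoxia (−0.25 ± 0.11, FDR = 0.147). Angpt4 stood at 0.941 ± 0.589 CPM in IgG lungs and 0.631 ± 0.294 CPM in normoxia (0.44 ± 0.30, FDR = 0.37).

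The adaptor gene Shc1 rose by 0.21 ± 0.04 (FDR = 0.000466) and the integrin gene Itga5 by 0.30 ± 0.08 (FDR = 0.0142). The 2 that fell are named after their values were seen. They were Foxo1, a transcription factor that signalling from Tie2 keeps out of the nucleus (−0.22 ± 0.07, FDR = 0.0438), and the phosphatase gene Ptpn11 (−0.16 ± 0.05, FDR = 0.0202). The call of Foxo1 was lost in 38 of 47 alternative fits and that of Ptpn11 in 9. In hypoxia with APL-9796, 4 of the 10 were higher and 0 lower than in normoxia.

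Among other genes of endothelial identity, 18 of 22 listed matched a tested row, and 9 rose and 4 fell, with a median of 0.26. Clec14a, a lectin-like receptor that also binds multimerin-2, fell to 369 ± 50.4 CPM in IgG lungs, against 728 ± 73.3 CPM in normoxic lungs (−0.98 ± 0.08, FDR = 1.55e-11). Flt1, a VEGF receptor, fell to 263 ± 33.5 CPM in IgG lungs, against 368 ± 68.1 CPM in normoxia (−0.48 ± 0.07, FDR = 1.17e-05). Robo4, a guidance receptor of endothelium, rose to 51.3 ± 10.7 CPM in IgG lungs, against 26.6 ± 6.77 CPM in normoxia (0.97 ± 0.11, FDR = 3.13e-08). Arhgef15 rose to 198 ± 21.5 CPM in IgG lungs, against 138.5 ± 27.9 CPM in normoxia (0.52 ± 0.08, FDR = 1.55e-05). The other 2 that fell, named after their values were seen, were Eng (−0.42 ± 0.08, FDR = 0.000309) and S1pr1 (−0.24 ± 0.07, FDR = 0.0268, a call lost in 16 of 47 alternative fits). Calls thus ran in both directions among identity genes, and the summed level of the 18 was 7988 ± 615 CPM with APL-9796, 7695 ± 594 CPM with IgG and 7379 ± 687 CPM in normoxia. Without female normoxia 8 and 9, at 6317 and 6508 CPM, the normoxic sum was 7572 ± 571 CPM (n = 10).

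**Figure D4:**
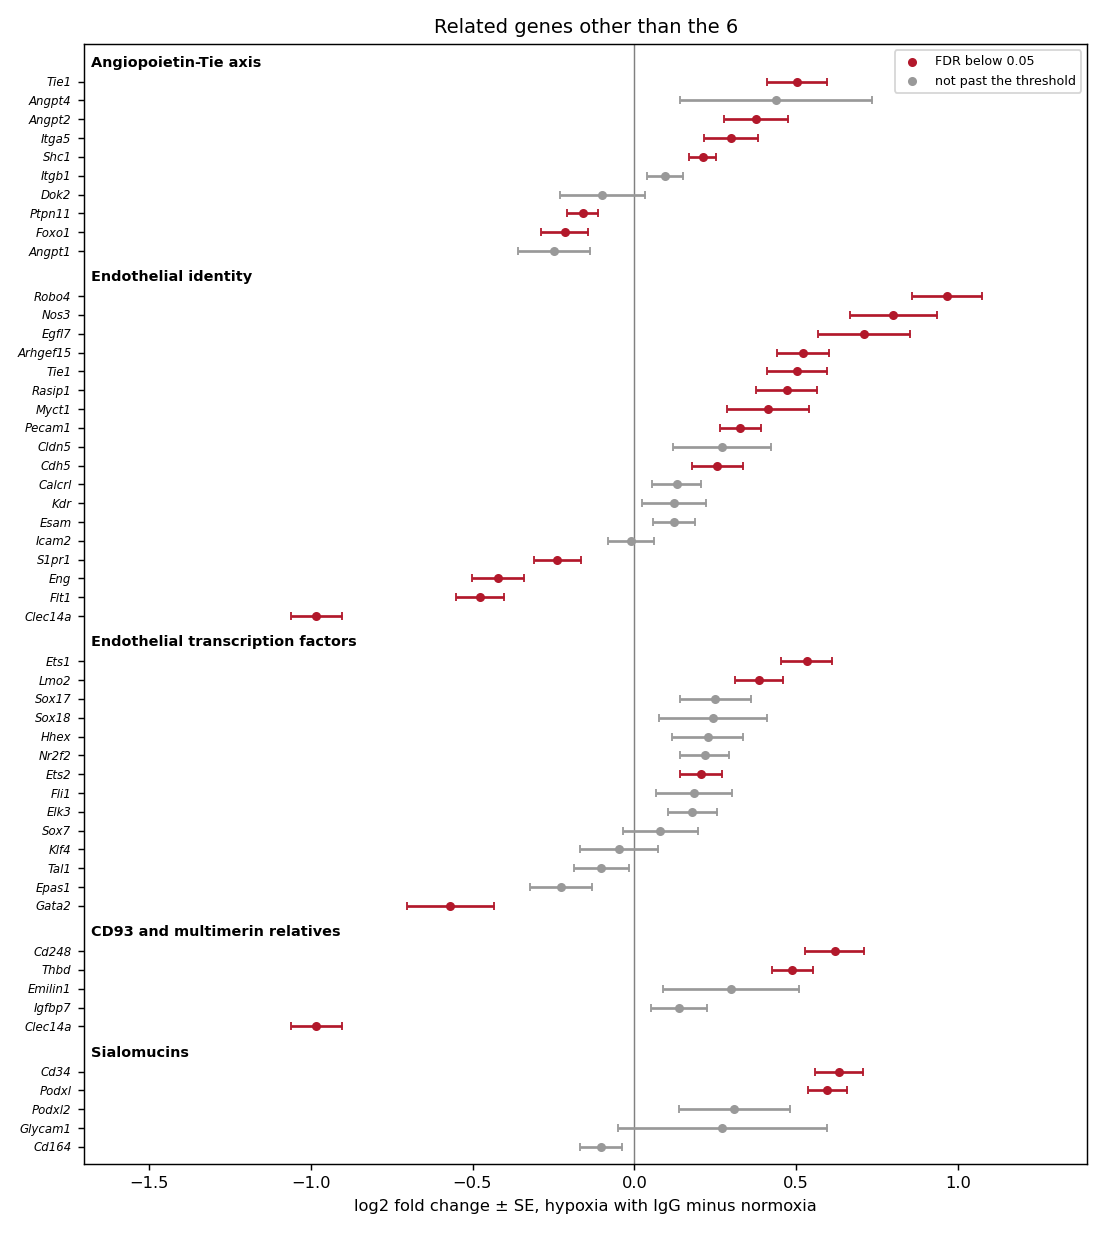
Log2 fold change ± SE (horizontal axis) of hypoxia with IgG minus normoxia for genes of 5 lists related to the 6 genes, with red for an edgeR FDR below 0.05 and grey for the rest. Each list holds genes on both sides of 0, from Clec14a at −0.98 to Robo4 at 0.97, and Tie1 and Clec14a appear in 2 lists.

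Of 18 other endothelial transcription factors listed, 14 matched a tested row, and 3 rose and 1 fell, with a median of 0.195. Ets1, an ETS factor like Erg, rose to 639 ± 87.2 CPM in IgG lungs, against 443 ± 79.8 CPM in normoxia (0.53 ± 0.08, FDR = 7.51e-06). Lmo2 rose by 0.39 ± 0.07 (FDR = 0.000309). Ets2 rose by 0.21 ± 0.06 (FDR = 0.0299), a call also lost in limma-voom and without male IgG 4. Gata2 fell to 107 ± 15.4 CPM in IgG lungs, against 159 ± 35.2 CPM in normoxia (−0.57 ± 0.13, FDR = 0.00344). Fli1, the ETS factor nearest to Erg and named outside the rule for named genes, stood at 0.18 ± 0.12 (FDR = 0.331).

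Among relatives of CD93 and multimerin-2, 5 of 8 listed genes were tested, and 2 rose and 1 fell, with a median of 0.30. Thbd, the gene of thrombomodulin, rose to 1347 ± 146 CPM in IgG lungs, against 960.5 ± 114 CPM in normoxia (0.49 ± 0.06, FDR = 6.58e-07). Cd248, which is found on pericytes and fibroblasts and also binds multimerin-2, rose to 29.7 ± 3.93 CPM in IgG lungs, against 19.6 ± 4.75 CPM in normoxia (0.62 ± 0.09, FDR = 5.5e-06). The 1 that fell was Clec14a. In hypoxia with IgG the 3 genes named here as encoding partners of multimerin-2 thus took different courses: Clec14a fell, Cd248 rose and Cd93 differed from normoxia by 0.13. For APL-9796 minus normoxia they stood at −0.89, 0.70 and 0.29, each called.

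Of 7 other sialomucins listed, 5 were tested, 2 rose and 0 fell, with a median of 0.31. Cd34 rose to 218 ± 28.5 CPM in IgG lungs, against 141 ± 13.5 CPM in normoxia (0.63 ± 0.07, FDR = 7.11e-08). Podxl rose to 428 ± 46.7 CPM in IgG lungs, against 284 ± 40.4 CPM in normoxia (0.60 ± 0.06, FDR = 3.73e-09). Of 8 junction genes and other partners of VE-PTP, 2 rose and 0 fell, with a median of 0.10. They were Fgd5 (0.32 ± 0.08, FDR = 0.00384) and Cdh5, the gene of VE-cadherin (0.26 ± 0.08, FDR = 0.0248).

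Markers of single vessel types were also measured. Of 6 tested markers of general capillary endothelium (a mouse lung list), 1 rose and 2 fell, with a median of −0.29. Sema3c rose by 0.90 ± 0.07 (FDR = 3.43e-11), whereas the diaphragm gene Plvap fell to 503.5 ± 74.6 CPM in IgG lungs, against 1056 ± 240 CPM in normoxia (−1.06 ± 0.13, FDR = 2.03e-07), and Bmp6 fell by 0.28 ± 0.07 on the log2 scale (FDR = 0.00853). Of 6 tested markers of aerocytes, the thin gas-exchange capillary cells (also a mouse list), 1 rose and 3 fell, with a median of −0.21. Tbx2 rose by 0.63 ± 0.12 (FDR = 0.000219), whereas Apln (−0.84 ± 0.09, FDR = 5.72e-09), Cyp4b1 (−0.55 ± 0.08, FDR = 1.88e-06) and Ednrb (−0.21 ± 0.06, FDR = 0.00966) fell.

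Of 8 tested arterial markers 3 rose and 4 fell, with a median of −0.06. Gja4 rose by 1.07 ± 0.16 (FDR = 8.22e-06), Cxcl12 by 0.71 ± 0.08 (FDR = 5.88e-08) and Fbln5 by 0.46 ± 0.11 (FDR = 0.00363), whereas Bmx fell by 0.75 ± 0.18 on the log2 scale (FDR = 0.00305). The other 3 that fell, named after their values were seen, were the Notch ligand gene Dll4 (−0.65 ± 0.17, FDR = 0.00671), Efnb2 (−0.37 ± 0.10, FDR = 0.00879) and Hey1 (−0.38 ± 0.13, FDR = 0.0484, a call lost in 33 of 47 alternative fits). Of 4 tested venous markers 0 rose and 1 fell, Slc6a2 (−0.90 ± 0.22, FDR = 0.00453, not called with limma-voom either). Of 5 tested lymphatic markers 3 rose and 1 fell. Lyve1, which is also expressed outside lymphatic vessels, fell to 69.8 ± 27.9 CPM in IgG lungs, against 419.5 ± 84.4 CPM in normoxia (−2.60 ± 0.20, FDR = 2.08e-11). Ccl21 (0.80 ± 0.12, FDR = 4.71e-06), Prox1 (0.90 ± 0.20, FDR = 0.00138) and Reln (0.68 ± 0.17, FDR = 0.00445) rose.

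Markers of other cell types moved between the same arms, and their part in the values of the 6 genes was not tested. All 5 tested smooth muscle markers rose (Myl9 0.88, Cnn1 0.82, Des 0.70, Actg2 0.57 and Lmod1 0.55, FDR at most 0.00482), and in run A alone 2 kept a call. Lmod1 is named after its values were seen. Their summed level ran from 346 to 738 CPM with APL-9796, from 373 to 607 CPM with IgG and from 137 to 394 CPM in normoxia. Without female normoxia 8 and 9 the lowest normoxic sum was 206.5 CPM. Of 6 tested pericyte markers 4 rose and 1 fell, among them Notch3 (0.74 ± 0.15, FDR = 0.000484), Higd1b (0.53 ± 0.09, FDR = 0.000112), Cox4i2 (0.46 ± 0.09, FDR = 0.000525) and, lower, Rgs5 (−0.56 ± 0.10, FDR = 9.25e-05). The fourth that rose, Kcnj8 (0.47 ± 0.09, FDR = 0.000575), is named after its values were seen. The sum of the pericyte markers ran from 413.5 to 609.6 CPM with APL-9796, from 342 to 566 CPM with IgG and from 210.5 to 461 CPM in normoxia. With those 2 normoxic libraries left out, its lowest normoxic value was 291.2 CPM. Among 6 fibroblast markers Col1a1 (0.85 ± 0.20, FDR = 0.00296) and Col1a2 (0.70 ± 0.16, FDR = 0.00211) rose and 0 fell.

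Of 4 tested alveolar type II markers 0 rose and 3 fell (Etv5 −0.33, Sftpa1 −0.33 and Sftpc −0.40), and without female normoxia 8 and 9 the calls of Sftpa1 and Sftpc were lost. Of 7 type I markers 2 fell, Rtkn2 (−0.32 ± 0.08, FDR = 0.00499) and Hopx (−0.38 ± 0.12, FDR = 0.0253, a call lost in 12 of 47 alternative fits, that without those 2 libraries included). All 3 tested platelet markers fell (Clec1b −0.93, Pf4 −0.65 and Treml1 −1.13), and without those 2 libraries Clec1b kept its call. Of 6 adipocyte markers 4 rose, Adrb3, Ucp1, Cidea and Plin1, and their summed level ran from 3.32 to 354 CPM in IgG lungs. All 4 calls were lost without female IgG 11, male APL-9796 5 and male IgG 6, and that of Plin1 in 32 of 47 alternative fits. The sum ran from 5.29 to 53.4 CPM with APL-9796 and from 6.32 to 53.8 CPM in normoxia. None of 6 leukocyte, 7 cardiac and skeletal muscle and 2 erythroid markers was called by edgeR in hypoxia with IgG, with 1, 0 and 0 of them at an unadjusted p under 0.05.

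Sex played no part in the choice of the genes, so tests between the sexes are free of that choice. They are not free of sequencing run, which was uneven between the sexes. Run B held 4 female and 1 male IgG libraries, 1 female and 1 male APL-9796 libraries and 2 female normoxic ones. The library of run C was also female. Averaged over the arms, females had lower Cd93 than males. Mean levels were 665 ± 95.6 CPM in females and 789 ± 67.0 CPM in males with APL-9796, 619 ± 85.1 CPM in females and 681 ± 137 CPM in males with IgG, and 531.5 ± 51.7 CPM in females and 660.3 ± 25.7 CPM in males in normoxia (SD, n = 6 each). Female minus male was −0.23 ± 0.06 (95% interval −0.36 to −0.11, edgeR FDR = 0.0457), and this was the 1 call among the 6 genes, where 1.65% of all genes tested were called (0.636% higher and 1.01% lower in females). The call was lost without filter (−0.23), with sequencing run as a term (−0.16), in run A alone (−0.19) and without female normoxia 8 and 9 (−0.21). It was also lost in 26 of 36 fits that left out 1 library, in which the FDR ran from 0.0208 to 0.0799, and the direction held in all 36.

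Erg stood at −0.25 ± 0.08 for female minus male (FDR = 0.0774), and it was called with DESeq2 (FDR = 0.043) and without female normoxia 7 (FDR = 0.0303). Ptprb stood at −0.25 ± 0.10 (FDR = 0.148). Female and male means of Erg were 102 ± 15.8 and 109 ± 12.98 CPM with APL-9796, 83.2 ± 6.57 and 104 ± 16.9 CPM with IgG, and 102 ± 17.2 and 130 ± 35.9 CPM in normoxia. Mmrn2 stood at −0.15 ± 0.08 (FDR = 0.323), Tek at −0.04 ± 0.05 (FDR = 0.706) and Emcn at −0.01 ± 0.09 (FDR = 0.967). The 95% interval for Tek was −0.14 to 0.07 and that for Emcn −0.19 to 0.17.

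Whether hypoxia moved the genes differently in the sexes was asked with the interaction, the female difference minus the male one. Tek averaged 392 ± 25.6 CPM with IgG and 707.5 ± 112 CPM in normoxia in females (−0.85 ± 0.09), and in males 481 ± 63.0 CPM with IgG and 638 ± 46.3 CPM in normoxia (−0.41 ± 0.09). The interaction was −0.44 ± 0.13 (interval −0.70 to −0.19), with an unadjusted p of 0.00119 and an edgeR FDR of 0.14, so it did not pass the threshold. Alternative fits gave it an FDR of 0.0573 to 0.528, and with female normoxia 8 and 9 left out the interaction was −0.35 (FDR = 0.392).

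For Emcn the difference was 0.94 ± 0.16 in females and 1.37 ± 0.16 in males, with an interaction of −0.42 ± 0.22 (FDR = 0.337), and it ran from −0.71 in run A alone to −0.16 without female normoxia 8 and 9, with no call in either. The other 4 genes had interactions of 0.18 for Cd93, 0.13 for Mmrn2, 0.03 for Erg and −0.14 for Ptprb, with FDR of at least 0.577. DESeq2 and limma-voom gave the interaction of Tek an FDR of 0.062 and 0.092. edgeR called 0 of the 6, of which Tek had an unadjusted p under 0.05, as did 2480 of 15570 genes tested. Of all genes tested 0.0128% were called, 0.00642% in each direction.

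The difference of APL-9796 minus IgG was also compared between the sexes. Ptprb averaged 545 ± 96.0 CPM with APL-9796 and 376 ± 75.8 CPM with IgG in females (0.53 ± 0.17), against 498 ± 89.5 CPM with APL-9796 and 535 ± 121 CPM with IgG in males (−0.10 ± 0.17). The interaction was 0.64 ± 0.24 (interval 0.16 to 1.12, unadjusted p = 0.0104, edgeR FDR = 0.963). Tek averaged 456.5 ± 44.4 CPM with APL-9796 and 392 ± 25.6 CPM with IgG in females (0.22 ± 0.09), against 448 ± 24.5 CPM with APL-9796 and 481 ± 63.0 CPM with IgG in males (−0.10 ± 0.09). Its interaction was 0.32 ± 0.13 (interval 0.07 to 0.58, unadjusted p = 0.0153, FDR = 0.963). Neither passed the threshold, and edgeR, DESeq2 and limma-voom called 0 of all genes tested, with 685 at an unadjusted p under 0.05 in edgeR. Of the 6 female IgG libraries 4 came from run B. With the run as a term the interaction was 0.56 for Ptprb and 0.26 for Tek, and in run A alone 0.41 and 0.33.

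A second view that the arms do not set is how the genes vary together among libraries of the same sex and arm. With group means removed, 15 pairs of genes were correlated over 36 libraries, with permutation tests within groups adjusted over the 15 pairs. Ptprb varied with Mmrn2 (Pearson r = 0.548, permutation p = 0.00218, adjusted 0.0327, Spearman rho = 0.503, permutation p = 0.00419, adjusted 0.0314), and r was 0.51 without the 2 libraries farthest from the median of Ptprb. Ptprb also varied with Erg (r = 0.448, permutation p = 0.00506, adjusted 0.0379, rho = 0.511, permutation p = 0.00373, adjusted 0.0314), with r = 0.639 without the 2 farthest libraries. The other 13 pairs had adjusted p of at least 0.0763 for r. The permutation tests ask whether the genes of a pair vary independently. For no pair, here or below, was the share of all genes that reach such an r counted. Whether these r are particular to the pairs was therefore not tested. Within run A, r was 0.603 for Ptprb and Mmrn2 (adjusted permutation p = 0.273) and 0.666 for Ptprb and Erg (adjusted permutation p = 0.0147).

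Female normoxia 8 and 9 weighed on these correlations. Over the other 34 libraries Tek varied with Ptprb (r = 0.661, rho = 0.656, adjusted permutation p = 0.00105 for r) and with Erg (r = 0.624, rho = 0.562, adjusted permutation p = 0.00292). It varied in the opposite direction to Emcn (r = −0.516, rho = −0.588, adjusted permutation p = 0.039). Without the 2 of these libraries farthest from the median of Tek, r was 0.603, 0.479 and −0.484 for the 3 pairs. Over all 36 libraries the same pairs had r = 0.326 for Tek and Ptprb, 0.37 for Tek and Erg and −0.0875 for Tek and Emcn, with adjusted permutation p of 0.213, 0.174 and 0.731. Without those 2 libraries the pairs of Ptprb with Mmrn2 (r = 0.423, adjusted permutation p = 0.0635) and with Erg (r = 0.332, adjusted permutation p = 0.114) were not past the threshold. Within run A, which holds female normoxia 9, the pairs of Tek with Ptprb, Erg and Emcn had r of 0.182, 0.265 and −0.0603, with adjusted permutation p of at least 0.615.

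**Figure D5:**
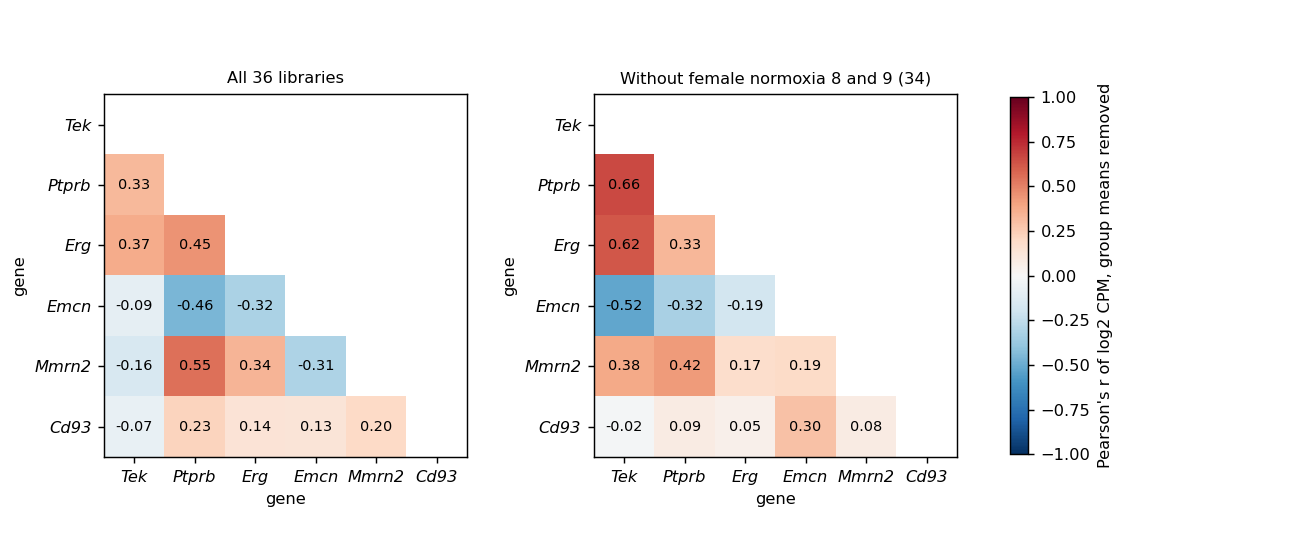
Pearson correlation of log2 CPM, with the mean of each sex and arm removed, for the 15 pairs of the 6 genes over all 36 libraries (left) and without female normoxia 8 and 9 (right), on a colour scale from −1 to 1. Tek and Ptprb reach 0.66 and Tek and Emcn −0.52 in the right panel, against 0.33 and −0.09 in the left one.

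Each gene was also set against library depth and against the mean log2 level of the 18 other endothelial genes, again with group means removed (12 relations). Tek varied with depth (r = 0.478, permutation p = 0.00832, adjusted 0.0333, rho = 0.421, permutation p = 0.018), and r was 0.356 without the 2 libraries farthest in depth. Erg (r = 0.596, permutation p = 0.00026, adjusted 0.0021, rho = 0.561) and Cd93 (r = 0.558, permutation p = 0.00035, adjusted 0.0021, rho = 0.581) varied with the other endothelial genes, with r of 0.516 and 0.549 without the 2 farthest libraries. Mmrn2 did so with r = 0.53 (permutation p = 0.0119, adjusted 0.0358, rho = 0.379), which was 0.22 without the 2 farthest libraries and so rests on them. Tek, Ptprb and Emcn had r of −0.0109, 0.233 and −0.0919 with those genes, with adjusted permutation p of at least 0.505. Without female normoxia 8 and 9 these r were 0.278, −0.0568 and 0.259, each of the opposite sign, so the values rest on those libraries.

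Over all named genes with at least 1 CPM on average, those most like each of the 6 within groups were taken by Pearson r over 36 libraries, as a description of the highest values of a search. For Tek they were Prkce (0.788), Enpp4 (0.787) and Kat7 (0.766), and for Ptprb Arhgef12 (0.911), Utrn (0.907) and Cdc42bpa (0.899). For Emcn they were Cog4 (0.848), Adgrl4 (0.795) and Tspan6 (0.782), of which Adgrl4 is an adhesion receptor of endothelium. For Mmrn2 they were Phldb1 (0.862), Maml3 (0.857) and Pitpnm2 (0.854). For Erg they were Eml1 (0.829), R3hdm2 (0.755) and Phactr2 (0.71), and for Cd93 Elmo2 (0.812), Npas2 (0.793) and Nmur1 (0.788). The median r of each of the 6 with all genes lay between −0.0601 and 0.0564. The search was not repeated without the female normoxic libraries that stood apart. How far the highest r rest on those libraries was not tested. None of the 18 genes is another of the 6. The 3 nearest to Emcn differed by −0.06 (Cog4), 0.26 (Adgrl4) and −0.01 (Tspan6) for IgG minus normoxia, beside 1.16 for Emcn.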

How the data were processed

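The authors deposited raw read counts, as whole numbers per gene, for 36 lung libraries. A deposited information sheet gave read file names. Parts of these names were read as library pool and flow cell, and sequencing runs A, B and C were named from them. The labels do not name these runs. The arm and sex in the sheet matched the labels in 36 of 36 libraries. The submitters' processing notes name DESeq2 1.24.0. How reads were aligned and counted, the build and the use of strand are not given in the sources used, so reads of overlapping or antisense genes cannot be told apart. Current symbols came from RefSeq names for GRCr8 (11113 of 27308 genes, 66.9% of counts), used for names only. A line of totals held 0.0% of counts and stayed out. Among 90 pairs of libraries of 1 group, the chi-square per gene was at least 3.86, beyond sampling noise.

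Counts were tested with the quasi-likelihood test of edgeR 4.0.16 (R 4.3.3), after filterByExpr and TMM scaling and with robust dispersion, in 1 model of 6 groups of sex and arm that weights sexes equally, with Benjamini-Hochberg adjustment over 15570 genes and a threshold of 0.05. The test was checked on simulated data. Log2 CPM used a prior count of 2. Correlations used 100000 permutations within groups. Python 3.11.15, pandas 2.3.3, numpy 2.4.6, scipy 1.17.1 and matplotlib 3.10.9 made tables and plots.

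The 6 genes and the gene lists were chosen with earlier results of these data known. Text names from each list up to 4 called genes with the smallest p for IgG minus normoxia, the angiopoietins and Tie1, and for each of the 6 genes the 3 with the highest within-group r; others are said to be named after their values were seen. Alternatives were 11 other settings (size factors, filters, DESeq2 1.42.0, limma-voom with limma 3.58.1, fits of compared groups, a replicate block, 2 fits for the sequencing run, and 2 fits without libraries that stood apart) and 36 fits leaving out 1 library each. For correlations, run A alone was chosen after seeing the data.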

Additional observations from a re-analysis of the deposited data

Results flagged for a closer look

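In each of the 6 groups of sex and arm, the highest and lowest of 6 libraries were checked for a gap to the next library that was large for the range of the group (Dixon's 95% critical value, 0.625 for 6 libraries). Of 36 checks, 1 for each gene and group, 7 found such a library, where chance gives about 1 in 20. Female normoxia 9 stood out for Tek, at 920 CPM with the next female normoxic library at 723 CPM, and for Emcn, at 244 CPM with the next at 150 CPM. The same library had the lowest Mmrn2 of all 36, at 32.6 CPM, and the highest summed type II markers. Male APL-9796 4 stood out for Ptprb, at 316 CPM with the next at 526 CPM, and for Erg, at 134 CPM with the next at 109 CPM. Female IgG 11 had 233 CPM of Ptprb, with the next at 368 CPM. Female IgG 7 had 351 CPM of Emcn, with the next at 295 CPM. Male normoxia 2 had 200 CPM of Erg, with the next at 131 CPM, and without it Erg lost its call for IgG minus normoxia.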

How the results depend on the processing

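For IgG minus normoxia and APL-9796 minus normoxia, Tek, Ptprb, Emcn and Mmrn2 kept direction and call in all 11 settings and all 36 fits without 1 library; the fits in which Erg lost its call for IgG minus normoxia are given with its values above. Numbers of called genes moved as follows, and the cause was not tested. For IgG minus normoxia 725 genes were called in run A alone, against 1947 in all libraries. For APL-9796 minus IgG DESeq2 called 1. The interaction of sex and hypoxia gave 2 genes, 0 without filter, with the run as a term, in run A alone and in both sets of libraries left out, 60 with DESeq2, 431 with limma-voom and 0 to 560 without 1 library (560 without female normoxia 7). Female minus male gave 257 genes, 607 with DESeq2, 1340 with limma-voom, 553 with the run as a term, 141 in run A alone and 153 to 874 without 1 library (874 without female normoxia 7). Correlated pairs past the threshold numbered 2, and 1 with RLE size factors, with means of group and run removed and in run A alone.

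Values that changed sign were small or uncalled. Emcn for APL-9796 minus IgG was −0.0017 without filter, −0.055 with limma-voom, −0.013 in run A alone and −0.052 to 0.045 without 1 library. The interaction of sex and hypoxia for Mmrn2 was −0.062 without female normoxia 8 and 9 and −0.012 to 0.27 without 1 library. For Erg it was −0.065 with limma-voom, −0.0010 with the run as a term, −0.080 without female normoxia 8 and 9 and −0.13 to 0.11 without 1 library. Female minus male was 0.0058 for Tek with the run as a term and 0.034 in run A alone, and −0.074 to 0.025 for Emcn without 1 library. Within groups r was 0.378 for Tek and Mmrn2 and 0.189 for Emcn and Mmrn2 without female normoxia 8 and 9, and for Erg and Cd93 −0.0299 with means of group and run removed and −0.056 in run A alone. Leaving out female normoxia 8 and 9 also changed the sign of r with the other endothelial genes for Tek, Ptprb and Emcn. For Mmrn2 and library depth it moved r from −0.103 to 0.214.

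Libraries with the same replicate number showed little likeness: over 36 pairs with the same number in 2 arms, deviations correlated at −0.216 to 0.254, over 0.1 in 9, and 5 libraries were nearest to their own number. Such correlations cannot exclude that the numbers pair libraries by design. With the number as a block, 1808 genes were called for IgG minus normoxia, 2606 for APL-9796 minus normoxia and 1 for the interaction of sex and hypoxia. Of the 6 genes none changed a call under the block, and Emcn for APL-9796 minus IgG was −0.0057. Among the listed genes named above, the block ended the calls of Cdh5, Foxo1, Hopx, Plin1 and Cidea.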
